A study of Mus musculus with 14 samples.

Results

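The nuclear genes for the subunits of the oxidative phosphorylation complexes, together with a small set of factors that assemble those complexes, were examined in liver RNA of C57BL/6J mice with diet-induced obesity. Members were the genes whose single platform symbol begins with Nduf, Uqcr, Atp5 or Cox followed by a digit from 4 to 8, and the 4 genes Sdha, Sdhb, Sdhc and Sdhd. The rule gave 84 of the 12393 genes that the array names with 1 symbol, and each was read from the probe set that was brightest on average over the 14 arrays. Of the 84, 78 encode subunits and 6 encode assembly factors. A filter on dim probe sets kept 81 members for testing, and Cox7a1, Cox6b2 and Cox8b fell below it.

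The study set 5 livers treated with an adenovirus that expresses a short hairpin RNA (shRNA) against Jnk1, the stress kinase encoded by Mapk8, beside 4 livers treated with an adenovirus expressing an shRNA against green fluorescent protein (GFP) and 5 livers treated with vehicle, which carried no virus. All 3 groups were obese mice of the same strain, so every comparison is within obesity. Dose, time after injection, diet, sex and age are not stated in the labels, and neither is a promoter that would limit the hairpin to 1 cell type. The labels number the samples (1, 2, 3 and 5 for GFP shRNA) without stating that each was a separate mouse, so p-values measure only how far these samples spread, and the number of arrays limits the precision.

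Oxidative phosphorylation passes electrons from NADH through complex I, or from succinate through complex II, to ubiquinone, then through complex III and cytochrome c to complex IV, where oxygen is reduced. Complexes I, III and IV pump protons, and complex V, the ATP synthase, uses the proton gradient to make ATP. Subunits come from both the nuclear and the mitochondrial genome, and the transcription factors NRF1, GABP, YY1 and ERR alpha, with their coactivators of the PGC-1 family, are known to act on many of the nuclear genes; in liver the chain takes up the electrons released by fatty acid oxidation.

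The promoters of 9 members called higher with Jnk1 shRNA in both comparisons (those of smallest p against GFP shRNA that had an entry, 2 per complex and 1 for complex II) are shown. Each runs 5′ to 3′ from 250 bases before to 50 after the annotated start, from RefSeq on build GRCm38.p6. Capitals mark any of 6 motifs on either strand: GCGCATGC (NRF1), AAGGTCA (ERR), CCGGAAG (ETS, the family of GABP), AAGATGGCG (YY1), CCAAT (the CCAAT box) and GGGCGG (Sp1).
Ndufs7 (chr10:80249199-80249498, plus strand): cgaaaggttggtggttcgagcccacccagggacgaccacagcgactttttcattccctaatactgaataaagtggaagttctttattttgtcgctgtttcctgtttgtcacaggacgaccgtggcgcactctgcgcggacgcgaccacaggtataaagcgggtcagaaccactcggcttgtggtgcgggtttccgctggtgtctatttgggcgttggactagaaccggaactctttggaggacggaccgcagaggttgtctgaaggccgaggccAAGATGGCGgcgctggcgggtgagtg
Ndufa8 (chr2:36049289-36049588, minus strand): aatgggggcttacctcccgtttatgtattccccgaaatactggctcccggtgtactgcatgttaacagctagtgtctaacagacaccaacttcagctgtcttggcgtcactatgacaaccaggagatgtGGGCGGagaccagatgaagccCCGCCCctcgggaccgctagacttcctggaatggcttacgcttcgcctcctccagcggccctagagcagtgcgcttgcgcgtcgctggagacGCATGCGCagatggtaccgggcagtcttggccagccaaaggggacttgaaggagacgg
Sdhd (chr9:50603800-50604099, minus strand): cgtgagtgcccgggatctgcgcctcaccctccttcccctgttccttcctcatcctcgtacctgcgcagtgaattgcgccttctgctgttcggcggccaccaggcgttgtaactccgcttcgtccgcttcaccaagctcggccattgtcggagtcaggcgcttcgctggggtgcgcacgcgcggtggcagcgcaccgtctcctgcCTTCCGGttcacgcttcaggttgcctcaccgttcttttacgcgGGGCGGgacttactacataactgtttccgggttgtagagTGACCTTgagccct
Uqcrfs1 (chr13:30545267-30545566, minus strand): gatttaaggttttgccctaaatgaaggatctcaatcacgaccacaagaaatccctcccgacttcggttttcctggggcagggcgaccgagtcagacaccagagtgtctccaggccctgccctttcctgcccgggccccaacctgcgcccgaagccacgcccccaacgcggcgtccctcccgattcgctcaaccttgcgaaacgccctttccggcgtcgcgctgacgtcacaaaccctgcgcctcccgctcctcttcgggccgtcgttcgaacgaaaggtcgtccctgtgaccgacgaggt
Uqcr10 (chr11:4704295-4704594, minus strand): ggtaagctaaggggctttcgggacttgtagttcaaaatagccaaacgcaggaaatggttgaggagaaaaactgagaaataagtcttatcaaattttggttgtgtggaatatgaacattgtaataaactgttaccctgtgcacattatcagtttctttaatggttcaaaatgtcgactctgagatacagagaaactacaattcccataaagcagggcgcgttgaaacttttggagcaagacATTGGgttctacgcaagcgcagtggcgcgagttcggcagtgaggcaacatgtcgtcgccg
Cox6b1 (chr7:30626065-30626364, minus strand): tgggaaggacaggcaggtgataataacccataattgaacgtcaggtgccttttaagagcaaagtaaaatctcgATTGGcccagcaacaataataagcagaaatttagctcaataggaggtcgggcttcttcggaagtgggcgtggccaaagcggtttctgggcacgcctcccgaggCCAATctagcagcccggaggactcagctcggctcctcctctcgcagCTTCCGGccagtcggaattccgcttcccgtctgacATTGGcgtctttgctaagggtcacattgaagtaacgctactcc
Cox5b (chr1:36691237-36691536, plus strand): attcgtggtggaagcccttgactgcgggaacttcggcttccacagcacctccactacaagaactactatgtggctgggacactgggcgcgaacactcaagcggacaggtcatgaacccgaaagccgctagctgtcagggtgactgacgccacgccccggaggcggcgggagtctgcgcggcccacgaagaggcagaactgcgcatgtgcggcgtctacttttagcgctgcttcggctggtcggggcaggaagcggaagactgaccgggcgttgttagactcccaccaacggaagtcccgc
Atp5o (chr16:91931581-91931880, minus strand): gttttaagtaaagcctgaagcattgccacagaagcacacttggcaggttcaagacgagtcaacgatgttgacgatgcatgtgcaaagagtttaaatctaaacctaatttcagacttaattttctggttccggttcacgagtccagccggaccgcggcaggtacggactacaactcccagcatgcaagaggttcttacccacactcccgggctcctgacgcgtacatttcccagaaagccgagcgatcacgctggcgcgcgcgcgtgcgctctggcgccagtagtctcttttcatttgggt
Atp5l (chr9:44920693-44920992, minus strand): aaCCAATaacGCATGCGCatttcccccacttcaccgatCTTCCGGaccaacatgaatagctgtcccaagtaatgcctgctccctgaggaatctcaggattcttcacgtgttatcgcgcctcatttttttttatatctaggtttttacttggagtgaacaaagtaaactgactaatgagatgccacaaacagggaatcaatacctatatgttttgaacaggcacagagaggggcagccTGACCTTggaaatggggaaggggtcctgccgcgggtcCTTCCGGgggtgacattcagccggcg

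In these windows Atp5l held 4 kinds of motif (NRF1, ERR, ETS and CCAAT), Sdhd held ERR, ETS and Sp1, and Ndufs7 held the YY1 letters. No letters of the 6 motifs stood in the windows of Uqcrfs1, Cox5b and Atp5o. Over the 75 promoters found for 70 of the 84 members, NRF1 letters were in 14.7%, against 2.71% of all 32851 promoters in the table. The YY1 letters were in 8.0% of member promoters, against 1.4% of all, and the ETS letters in 24.0%, against 8.86%. ERR letters were in 9.33%, against 4.72%, Sp1 in 42.7%, against 35.7%, and CCAAT in 38.7%, against 37.4%. Member promoters had a GC content of 58.1%, against 53.8% for all, and motifs overlapped each other in 1 of them. Split by the call against GFP shRNA, 50 promoters belonged to members called higher and 20 to uncalled members. The rest of the 75, of members called lower or not tested, are left out of this split. ERR letters were in 7 of the 50 promoters of higher genes (Ndufb2, Ndufs5, Sdhd, Atp5e, Atp5g3, Atp5k and Atp5l) and 0 of the 20 of uncalled members. ETS letters were in 16 and 2, CCAAT in 22 and 4, and YY1 letters in 5 and 1. As shares, NRF1 and Sp1 letters ran the other way, in 6 of 50 and 4 of 20 for NRF1 and in 20 of 50 and 9 of 20 for Sp1. These counts are a description of few promoters, and a match is not evidence of binding.

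The arrays were checked first. Mapk8 averaged 6.07 ± 0.18 (SD, n = 5) in log2 intensity with Jnk1 shRNA, against 7.38 ± 0.09 for GFP shRNA (n = 4) and 7.47 ± 0.14 for vehicle (n = 5), so the targeted gene was lower in its own group by 1.31 ± 0.11 (SE) relative to GFP shRNA (adjusted p = 3.50e-07 in limma). All 10 hepatocyte markers were above the filter. The mean log2 level of the 18 spike-in probe sets was 8.39 ± 0.32 (SD) on the Jnk1 shRNA arrays, against 8.89 ± 0.07 for GFP shRNA and 8.90 ± 0.09 for vehicle. It ran from 7.92 on Jnk1 shRNA array 1 to 8.79 on Jnk1 shRNA array 2. GFP shRNA array 2 had a median deposited intensity of 58.3, where the other 13 arrays had 41.8 to 50.5. The 99th percentile of deposited intensity was 2407 to 2604 on the Jnk1 shRNA arrays, 2597 to 2945 with GFP shRNA and 2629 to 3005 with vehicle, so the top 1% of the Jnk1 shRNA arrays began at lower or nearly equal values before quantile normalization.

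Livers with Jnk1 shRNA had higher levels of most respiratory chain and ATP synthase transcripts than livers with GFP shRNA. Of 81 tested members 54 were higher and 2 lower at an adjusted p under 0.05, with a median log2 difference of 0.33, while the median of all 13575 tested probe sets was -0.01. In the same comparison 17.3% of all probe sets were called higher and 15.8% lower. Members were bright: 72 of the 81 were among the brightest 25% of probe sets (a log2 mean of at least 8.21). Among these 72, 75% were called higher and 0 lower, beside 26.3% higher and 25.1% lower for all probe sets of that brightness. The 2 members called lower, Ndufaf3 and Ndufaf4, are assembly factors, and of the 75 tested subunits 53 were higher and 0 lower (56 and 1 at an unadjusted p under 0.05).

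Against vehicle the same Jnk1 shRNA arrays had 44 members higher and 5 lower of 81, with a median of 0.24, beside a median of -0.02 over all probe sets. Of all probe sets, 18.9% were called higher and 18.7% lower, and of the brightest 25%, 28.1% higher and 27.8% lower. Of the 72 bright members, 61.1% were higher in this comparison. GFP shRNA livers had few member calls against vehicle livers, with 0 members higher and 2 lower (Ndufa2 and Sdhc). Of the 81 tested members, however, only 16 had a positive difference in this comparison. The median of the 81 was -0.09, beside -0.02 over all probe sets. At an unadjusted p under 0.05, 1 member was higher and 14 were lower in limma. At an adjusted p under 0.05, the threshold of the 2 calls, 2.05% of all probe sets were higher and 0.53% lower. Those shares are not a background for the 14. No share of all probe sets is given for this or any other count at an unadjusted p. When arrays were instead scaled to a common median, the median of all probe sets with GFP shRNA against vehicle moved to -0.11 and that of the members to -0.26. Comparisons that share arrays are not independent of each other.

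**Figure D1:**
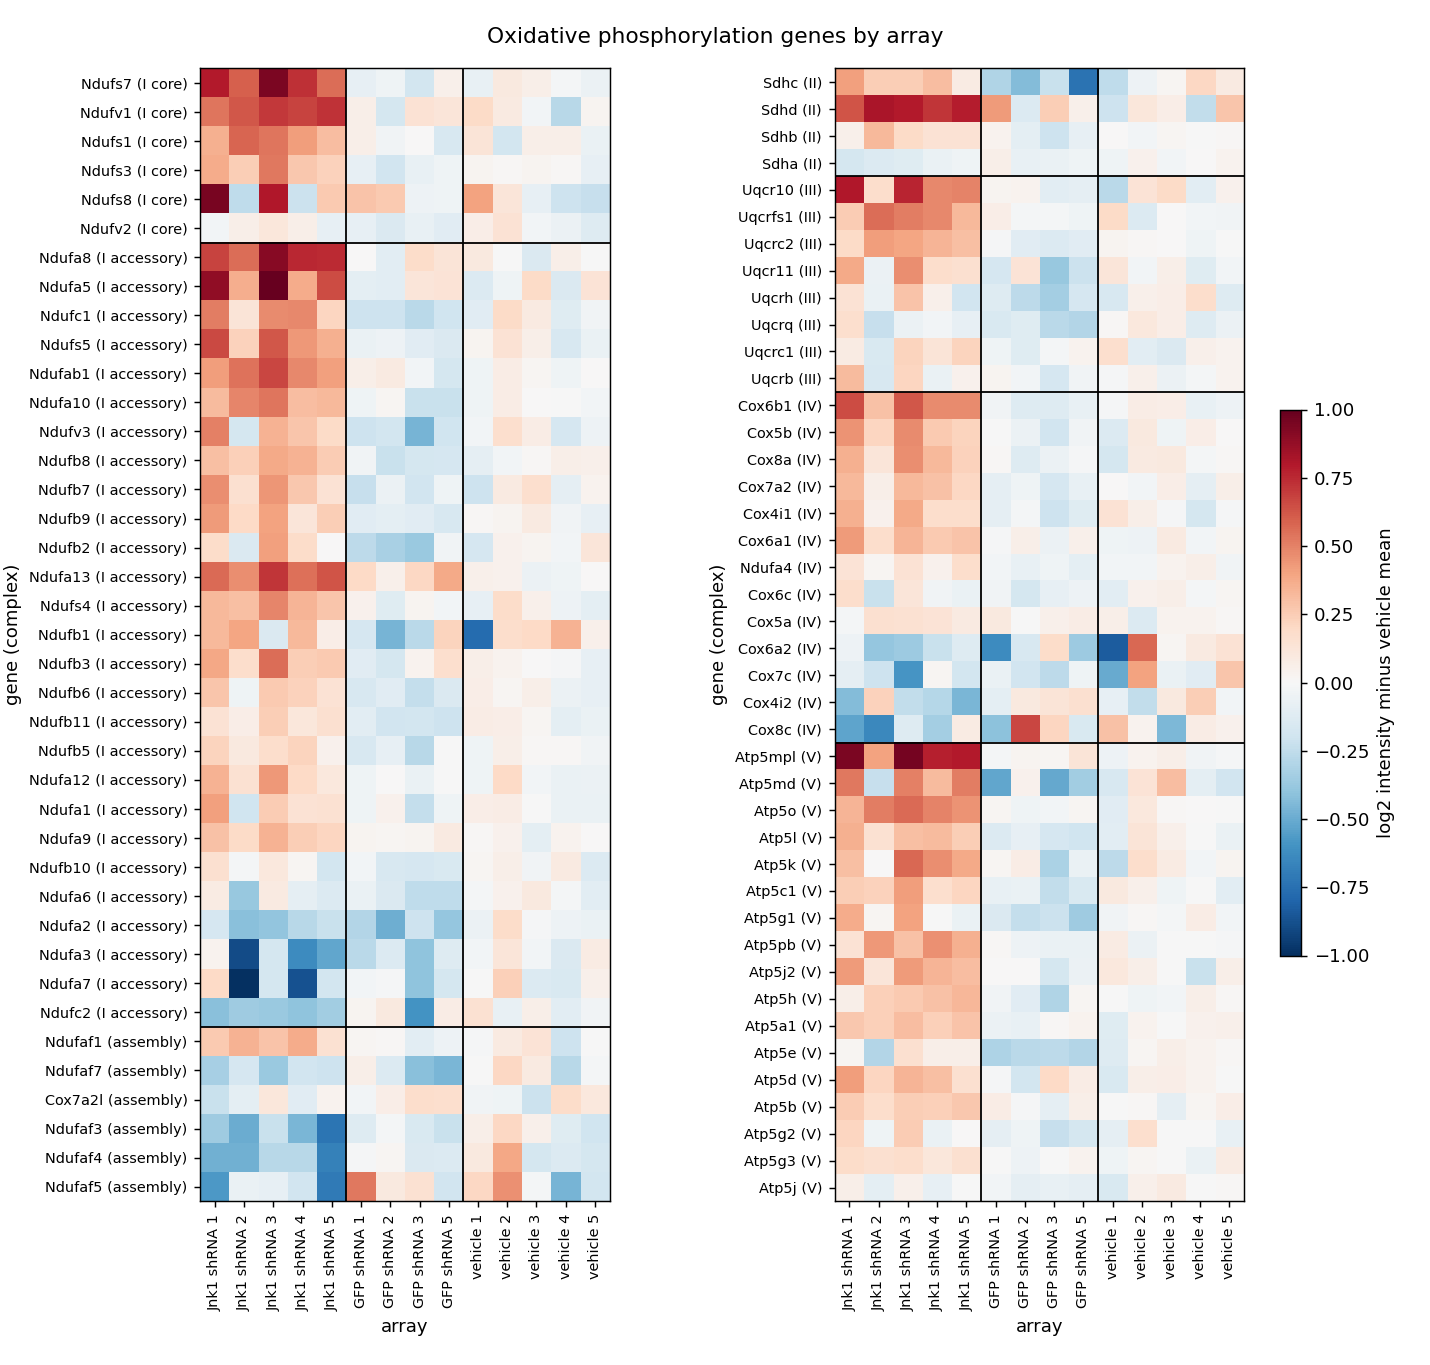
Log2 intensity of the 81 tested members (rows, with their complex in parentheses) on the 14 arrays (columns), as the difference from each gene's mean over the vehicle arrays, with red higher and blue lower. The 5 Jnk1 shRNA columns are red for most subunits, with array 2 paler than the others for many of them.

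Averaged over the 75 tested subunits, the level was 0.29, 0.09, 0.32, 0.19 and 0.18 above the vehicle mean on Jnk1 shRNA arrays 1 to 5 (log2). The GFP shRNA arrays 1, 2, 3 and 5 lay at -0.07, -0.08, -0.13 and -0.08, and the vehicle arrays spanned -0.05 to 0.06. Every Jnk1 shRNA array therefore lay above every GFP shRNA and vehicle array in this mean. Every GFP shRNA array in turn lay below every vehicle array, so Jnk1 shRNA stood further from GFP shRNA than from vehicle. Array 2, with the highest spike-in level of its group, was the lowest of the 5 Jnk1 shRNA arrays for 42 of the 75 subunits, and array 3 was the highest for 31. When the spike-in level was fitted as a covariate, 26 members were higher and 3 lower than with GFP shRNA (median 0.20), and 21 higher and 8 lower than with vehicle (median 0.11). The 3 lower than with GFP shRNA were the complex I accessory subunits Ndufa3 (-0.69) and Ndufa7 (-0.86) and the assembly factor Ndufaf3 (-0.50). Subunits were therefore among the members called lower in that fit, and Ndufaf4 was not (-0.45, adjusted p = 0.0998). Of the members called in the main fit, 29 of 56 lost the call against GFP shRNA and 25 of 49 against vehicle. Calls over all probe sets also became fewer in that fit, with 8.96% higher and 8.35% lower against GFP shRNA and 11.4% and 10.8% against vehicle. With array 2 as the only Jnk1 shRNA array, a fit that assumes it varied like the other groups, 17 were higher and 2 lower than with GFP shRNA (median 0.17), and 15 higher and 3 lower than with vehicle (median 0.13). Of all probe sets, 4.92% were then higher and 4.97% lower against GFP shRNA, and 7.02% and 7.12% against vehicle. The part of the spike-in difference in the results was not tested beyond these fits. Without Jnk1 shRNA array 1, of lowest spike-in level, and GFP shRNA array 2, 51 were higher against GFP shRNA (median 0.31). In that fit 42 were higher against vehicle (median 0.22), and no share of all probe sets is given for it.

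**Figure D2:**
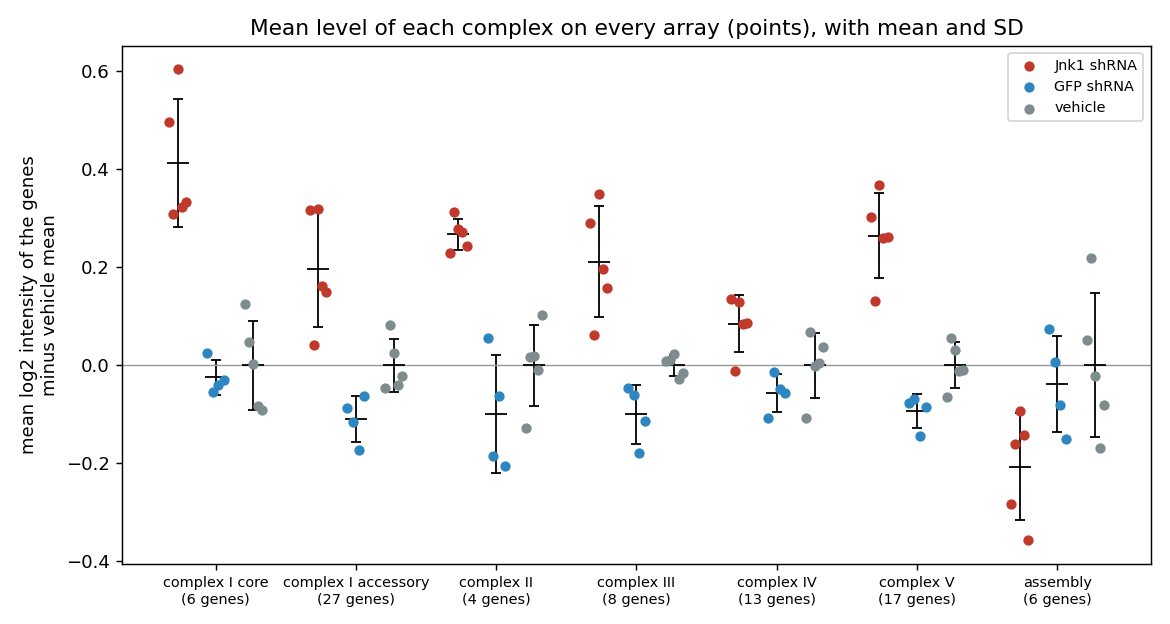
Mean log2 intensity of the tested genes of each complex minus the vehicle mean (vertical axis), for each array (points: Jnk1 shRNA, GFP shRNA, vehicle), with group mean and SD. Jnk1 shRNA means were 0.41 for the complex I core, 0.27 for complex II and 0.26 for complex V, and 0.08 for complex IV, while the assembly factors lay at -0.21.

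The core subunits of complex I include those that carry its flavin and iron-sulfur groups. Of the 6 on the array 4 were higher in both comparisons with Jnk1 shRNA, and 0 were lower (0 at an unadjusted p too). The mean of the 6 was 0.31 to 0.60 above vehicle on the Jnk1 shRNA arrays, -0.06 to 0.03 on the GFP shRNA arrays and -0.09 to 0.12 on the vehicle arrays.

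Ndufs7, the iron-sulfur subunit that hands electrons to ubiquinone, had the smallest p of the core. Its log2 intensities were 10.11, 9.91, 10.26, 10.05 and 9.88 with Jnk1 shRNA, against 9.23, 9.27, 9.13 and 9.37 with GFP shRNA and 9.24, 9.42, 9.37, 9.29 and 9.26 with vehicle. All 5 Jnk1 shRNA arrays lay above the other 9. It was 1.73-fold higher than with GFP shRNA (log2 difference 0.79 ± 0.08, SE, adjusted p = 2.47e-06) and 0.72 ± 0.08 higher than with vehicle (adjusted p = 1.80e-06). Ndufv1, the flavoprotein that oxidises NADH, read 10.21, 10.30, 10.39, 10.35 and 10.40 with Jnk1 shRNA, against 9.74, 9.50, 9.82 and 9.80 with GFP shRNA and 9.87, 9.76, 9.65, 9.40 and 9.71 with vehicle. It rose by 0.61 ± 0.09 and 0.65 ± 0.08, again without overlap. Ndufs1, which carries iron-sulfur clusters, and Ndufs3, a structural core subunit of the same arm, rose by 0.47 and 0.43 against GFP shRNA and by 0.44 and 0.33 against vehicle.

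Ndufv2, the iron-sulfur partner of Ndufv1, gave 0.13 ± 0.06 and 0.02 ± 0.06 and was not called. Ndufs8, another iron-sulfur subunit, was uneven on its brightest probe set, at 11.32, 10.11, 11.17, 10.15 and 10.62 with Jnk1 shRNA, against 10.65, 10.63, 10.31 and 10.32 with GFP shRNA. That set spread more among the Jnk1 shRNA arrays than the difference it gave, 0.20 ± 0.22. Of its 5 other probe sets, 3 were called higher than with GFP shRNA (0.42, 0.51 and 0.61), so the probe sets of Ndufs8 disagreed.

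Accessory subunits surround the core of complex I and are needed for its stability. Of 27, 19 were higher and 0 lower than with GFP shRNA (20 and 1 at an unadjusted p under 0.05), with a median of 0.36. Against vehicle 16 were higher and 3 lower, with a median of 0.25. The mean of the 27 was 0.04 to 0.32 above vehicle on the Jnk1 shRNA arrays, -0.17 to -0.06 on the GFP shRNA arrays and -0.05 to 0.08 on the vehicle arrays. Jnk1 shRNA array 2, the lowest, lay within the vehicle range. Ndufa8, an accessory subunit on the intermembrane space side, read 10.49, 10.38, 10.72, 10.57 and 10.56 with Jnk1 shRNA, against 9.82, 9.71, 10.00 and 9.94 with GFP shRNA and 9.91, 9.81, 9.67, 9.87 and 9.81 with vehicle. The Jnk1 shRNA arrays again stood clear of the rest, by 0.68 ± 0.08 relative to GFP shRNA (adjusted p = 8.49e-06) and 0.73 ± 0.07 relative to vehicle (adjusted p = 1.29e-06).

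Ndufab1, which is also the mitochondrial acyl carrier protein, rose by 0.52 ± 0.07 and 0.50 ± 0.07 in the 2 comparisons on this probe set, while its other probe set gave -0.04 against GFP shRNA and was not called. Averaging its probe sets ended the first call (0.24, adjusted p = 0.0626). Ndufb8, a subunit of the membrane arm, rose by 0.45 ± 0.06 relative to GFP shRNA and 0.30 ± 0.05 relative to vehicle. Ndufa13, also known as the cell death factor GRIM-19, read 10.72, 10.62, 10.87, 10.70 and 10.79 with Jnk1 shRNA, against 10.35, 10.20, 10.36 and 10.53 with GFP shRNA and 10.21, 10.20, 10.09, 10.11 and 10.16 with vehicle. The 3 groups were ordered in this gene, with differences of 0.37 ± 0.07 against GFP shRNA and 0.58 ± 0.06 against vehicle, but GFP shRNA and vehicle overlapped and did not pass (0.21, adjusted p = 0.134).

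The 3 accessory subunits called lower than with vehicle went against the rest of the complex. Ndufa2 read 8.75, 8.49, 8.51, 8.64 and 8.69 with Jnk1 shRNA and 8.62, 8.42, 8.70 and 8.52 with GFP shRNA, against 8.85, 9.10, 8.90, 8.86 and 8.85 with vehicle. Both virus groups lay below all vehicle arrays, by -0.30 ± 0.08 with Jnk1 shRNA (adjusted p = 0.00708) and -0.34 ± 0.08 with GFP shRNA (adjusted p = 0.0386), and the viruses differed by 0.05 ± 0.08. The GFP shRNA call on Ndufa2 was lost without any 1 of 9 arrays (adjusted p up to 0.116). Ndufc2 was 9.92 to 9.99 on the 5 Jnk1 shRNA arrays, against 10.36, 10.43, 9.74 and 10.41 with GFP shRNA and 10.23 to 10.49 with vehicle. Its difference from vehicle was -0.38 ± 0.11, and that from GFP shRNA, -0.28 ± 0.11, did not pass (adjusted p = 0.0703) while its second probe set did (-0.36 ± 0.09, adjusted p = 0.00690). With the spike-in covariate the Ndufc2 call against vehicle was lost (-0.38, adjusted p = 0.135). Ndufa3 ran from 9.37 to 10.30 with Jnk1 shRNA, against 10.11 to 10.38 with vehicle, overlapping, with -0.44 ± 0.13 (adjusted p = 0.0164).

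Complex II, succinate dehydrogenase, is also an enzyme of the citric acid cycle and is wholly nuclear encoded. With Jnk1 shRNA 3 of its 4 subunits were higher than with GFP shRNA and 2 higher than with vehicle, and 0 were lower (0 and 1 at an unadjusted p under 0.05). Sdhd read 10.89, 11.08, 11.05, 10.97 and 11.05 with Jnk1 shRNA, against 10.69, 10.13, 10.51 and 10.31 with GFP shRNA and 10.05, 10.38, 10.33, 10.01 and 10.54 with vehicle. The Jnk1 shRNA arrays lay above all others, by 0.60 ± 0.11 (adjusted p = 7.60e-04) and 0.75 ± 0.11 (adjusted p = 4.50e-05), and they spread less than either control group. Its second, dimmer probe set gave 0.24 ± 0.13 and 0.20 and was not called.

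Sdhc, the other anchor, had 9.97, 9.81, 9.81, 9.87 and 9.65 with Jnk1 shRNA, against 9.26, 9.13, 9.34 and 8.82 with GFP shRNA and 9.31, 9.51, 9.58, 9.77 and 9.65 with vehicle. The Jnk1 shRNA arrays were above every GFP shRNA array (0.68 ± 0.11, adjusted p = 1.53e-04) but overlapped vehicle (0.26 ± 0.10, adjusted p = 0.0572), and GFP shRNA was lower than vehicle by -0.43 ± 0.11 (adjusted p = 0.0473). This last call on Sdhc was lost without any 1 of 11 arrays, with values from -0.32 without GFP shRNA array 5 (adjusted p = 0.163) to -0.47 without GFP shRNA array 1. The call against vehicle appeared without vehicle array 4, GFP shRNA array 5 or Jnk1 shRNA array 5 (0.26 to 0.31, adjusted p from 0.0302 to 0.0400). Sdhb, the iron-sulfur subunit, rose by 0.26 ± 0.06 relative to GFP shRNA and by 0.17 ± 0.06 relative to vehicle (adjusted p = 0.0266), the second lost without vehicle array 2 (0.16, adjusted p = 0.0520) or Jnk1 shRNA array 2 (0.13, adjusted p = 0.0696). That call was also lost with arrays as deposited (0.10, adjusted p = 0.249), scaled to the same median (0.13, adjusted p = 0.421), with no intensity trend (adjusted p = 0.0725) and with the replicate block (adjusted p = 0.0588). Sdha, the flavoprotein that binds succinate, was not called, with overlapping groups (-0.08 ± 0.05 and -0.11 ± 0.04). Its second probe set was called lower than with vehicle (-0.25 ± 0.09, adjusted p = 0.0320), as was the representative one with arrays as deposited (-0.24, adjusted p = 0.0118) and the mean of both (-0.18, adjusted p = 0.0179).

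Complex III takes electrons from ubiquinol to cytochrome c. Of its 8 subunits on the array 5 were higher and 0 lower than with GFP shRNA (6 and 0 at an unadjusted p under 0.05, median 0.32), and 3 were higher than with vehicle (median 0.16). Uqcrc2, a core protein, read 10.62, 10.85, 10.82, 10.77 and 10.73 with Jnk1 shRNA, against 10.42, 10.31, 10.29 and 10.31 with GFP shRNA and 10.45, 10.44, 10.43, 10.38 and 10.43 with vehicle. It rose without overlap by 0.42 ± 0.05 (adjusted p = 2.32e-05) and 0.33 ± 0.05 (adjusted p = 9.61e-05). Uqcrfs1, the Rieske iron-sulfur protein, rose by 0.43 ± 0.07 in both comparisons.

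Uqcr10, a small subunit, read 9.82, 9.20, 9.79, 9.50 and 9.52 with Jnk1 shRNA, against 9.05, 9.06, 8.92 and 8.93 with GFP shRNA and 8.75, 9.16, 9.22, 8.92 and 9.06 with vehicle. Its differences were 0.57 ± 0.12 and 0.54 ± 0.11, with array 2 the lowest of the Jnk1 shRNA arrays and overlapping vehicle. Both calls on Uqcr10 were lost with the spike-in covariate (0.20, adjusted p = 0.314, and 0.16, adjusted p = 0.427). The core protein Uqcrc1 gave 0.14 ± 0.08 against GFP shRNA and 0.10 ± 0.08 against vehicle and was not called. Uqcrb, Uqcrq and Uqcrh, the hinge protein, gave 0.12, 0.16 and 0.27 against GFP shRNA, and of these Uqcrh passed (adjusted p = 0.0422). The median of complex III against vehicle changed sign with the spike-in covariate (-0.00) and with Jnk1 shRNA array 2 alone (-0.06).

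**Figure D3:**
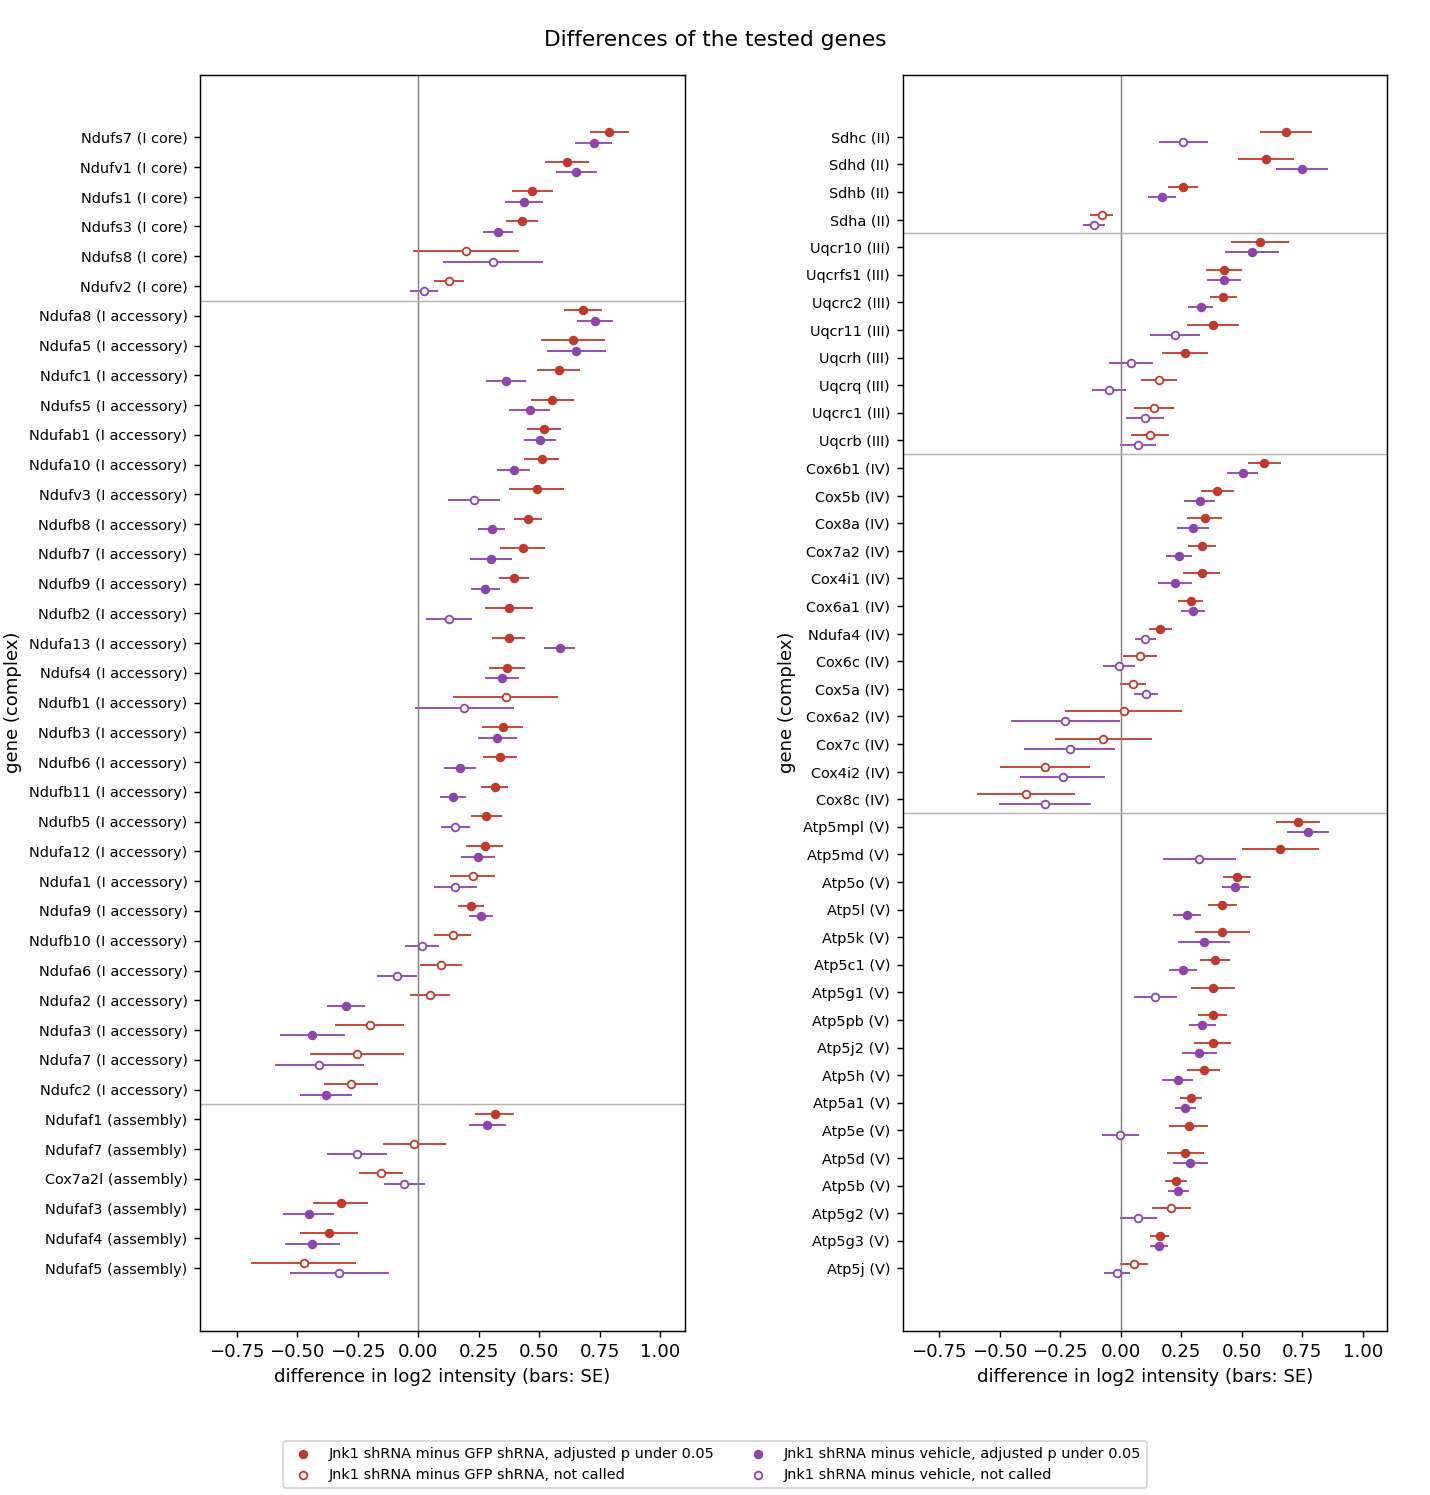
Difference in log2 intensity (horizontal axis, bars show SE) of each tested member, by complex, for Jnk1 shRNA minus GFP shRNA (red) and Jnk1 shRNA minus vehicle (purple). Filled points are called at an adjusted p under 0.05 and open points are not; complex V has filled red points for 15 of 17 genes and the assembly factors for 3 of 6, 2 of them left of 0.

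Complex IV, cytochrome c oxidase, has nuclear subunits that come in isoforms known from different tissues. Of 16 members 13 were tested, 7 were higher and 0 lower than with GFP shRNA (7 and 0 at an unadjusted p under 0.05), with a median of 0.16. Of the 9 tested members in the brightest 25%, a split made after the values were seen, 7 were higher with a median of 0.33. Against vehicle 6 of the 13 were higher, with a median of 0.10 that turned to -0.05 with arrays as deposited and to -0.02 with arrays scaled to the same median. The mean of the 13, relative to vehicle, was -0.011 to 0.135 on the Jnk1 shRNA arrays, -0.107 to -0.013 on the GFP shRNA arrays and -0.108 to 0.069 on the vehicle arrays. Jnk1 shRNA array 2, the lowest, lay within the vehicle range.

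Cox6b1, which faces the cytochrome c side, read 11.63, 11.26, 11.59, 11.44 and 11.44 with Jnk1 shRNA, against 10.93, 10.84, 10.84 and 10.90 with GFP shRNA and 10.96, 11.04, 11.03, 10.89 and 10.92 with vehicle. It rose without overlap by 0.59 ± 0.07 (adjusted p = 6.33e-06) and 0.50 ± 0.06 (adjusted p = 1.07e-05). Cox5b, a zinc-binding subunit, rose by 0.40 ± 0.07 and 0.33 ± 0.06. Of its 4 other probe sets, 3 were called higher in both comparisons and a dim one, at a mean of 5.60, was called lower (-0.61 ± 0.20 against GFP shRNA).

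The isoforms found in liver and most other tissues rose. Cox6a1 rose by 0.29 ± 0.05 and 0.30 ± 0.05, Cox7a2 by 0.34 ± 0.06 and 0.24 ± 0.05, and Cox8a by 0.35 ± 0.07 and 0.30 ± 0.07 against GFP shRNA and vehicle. Cox4i1 gave 0.33 ± 0.08 and 0.22 ± 0.07, and its call against vehicle was lost without Jnk1 shRNA array 1 (0.19, adjusted p = 0.0550), Jnk1 shRNA array 3 (0.19, adjusted p = 0.0605) or vehicle array 4 (0.18, adjusted p = 0.0637). With arrays as deposited or scaled to the same median, none of Cox4i1, Cox5b, Cox6a1, Cox7a2 and Cox8a was called against vehicle (-0.03 for Cox7a2 to 0.19 for Cox8a as deposited, and 0.00 for Cox7a2 to 0.22 for Cox8a scaled). Against GFP shRNA, Cox6a1 lost its call in both settings (0.04 as deposited, 0.21 scaled) and so did Cox7a2 (0.12 and 0.28), while Cox4i1, Cox5b and Cox8a were called in both. With the spike-in covariate none of these genes was called in either comparison. Against GFP shRNA that fit gave 0.14 for Cox4i1, 0.27 for Cox5b, 0.16 for Cox6a1, 0.18 for Cox7a2 and 0.21 for Cox8a. Ndufa4, named for complex I and now counted with complex IV, rose by 0.16 ± 0.05 against GFP shRNA and gave 0.10 ± 0.04 against vehicle. Its call was lost with arrays as deposited (0.07), scaled to the same median (0.23) and with the spike-in covariate (0.11). Cox5a and Cox6c gave 0.05 and 0.08 against GFP shRNA and were not called.

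The isoforms known from muscle, heart, lung or testis were either not called or below the filter. Cox6a2, the heart and muscle form of subunit 6a, gave 0.01 ± 0.24 against GFP shRNA, Cox4i2, a form known from lung, -0.31 ± 0.19, and Cox8c, a testis form, -0.39 ± 0.20. Cox7c, whose probe set was dim, gave -0.07 ± 0.20. Without GFP shRNA array 1 the Cox8c difference was -0.56 and passed (adjusted p = 0.0470). The muscle forms Cox7a1 and Cox8b lay below the filter, at 4.09 to 4.87 and 2.62 to 4.05 with Jnk1 shRNA, against 4.17 to 5.26 and 3.65 to 5.18 with GFP shRNA and 3.52 to 5.12 and 2.43 to 4.59 with vehicle. Of 10 muscle markers 2 were above the filter.

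Cox6b2, the testis form of the subunit that Cox6b1 encodes, was below the filter but ordered by group. Its log2 intensities were 5.53, 5.30, 6.54, 5.83 and 5.48 with Jnk1 shRNA, against 4.01, 4.10, 4.34 and 4.96 with GFP shRNA and 3.53, 2.36, 4.26, 2.32 and 3.63 with vehicle. The Jnk1 shRNA arrays lay above all others, and GFP shRNA and vehicle overlapped. In a fit with no filter, Cox6b2 gave 1.38 ± 0.41 against GFP shRNA (adjusted p = 0.0288) and 2.51 ± 0.39 against vehicle (adjusted p = 2.28e-04). Both control means lay under an intensity of 28.4, the lowest mean that was tested, so the size of these differences is uncertain.

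**Figure D4:**
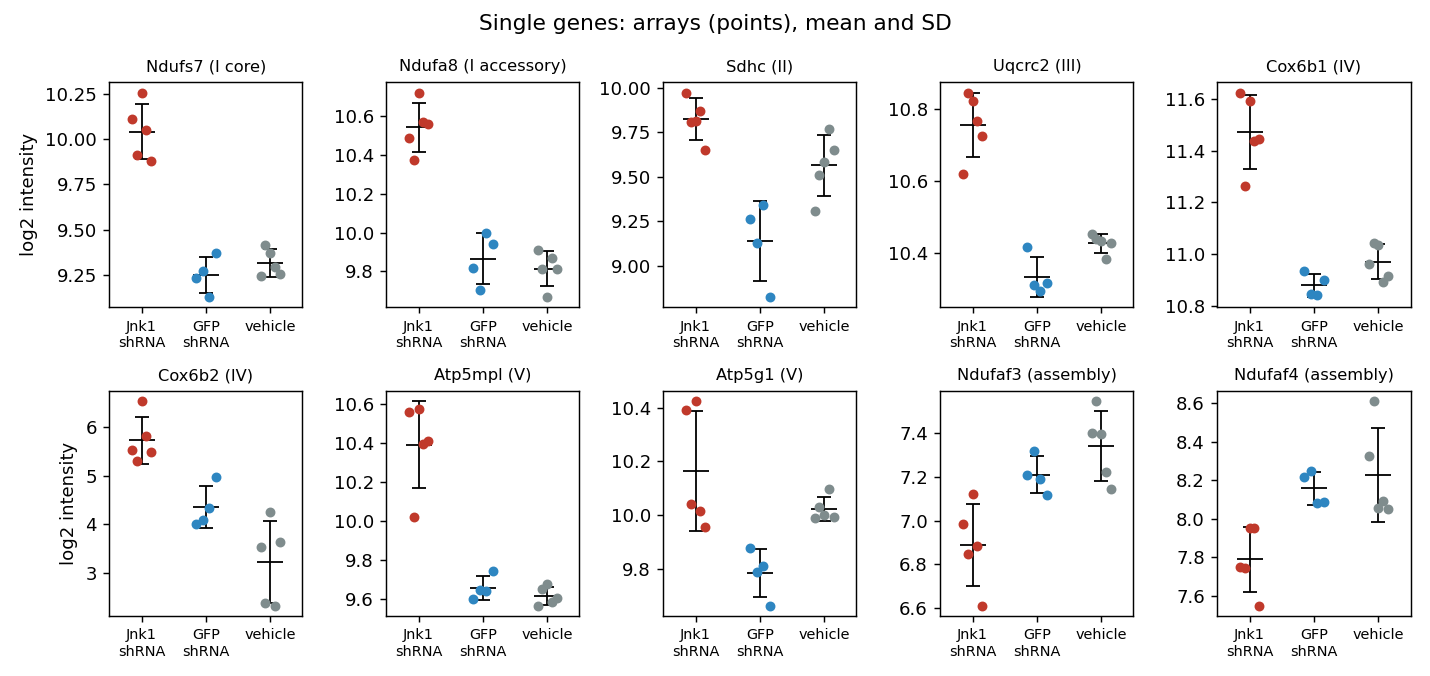
Log2 intensity of 10 members on every array (points), with group mean and SD, in the order Jnk1 shRNA, GFP shRNA and vehicle; vertical axes differ between panels and do not start at 0. Jnk1 shRNA arrays lie above all others for Ndufs7, Ndufa8, Uqcrc2, Cox6b1, Cox6b2 and Atp5mpl, overlap vehicle for Sdhc and Atp5g1, and lie mostly below for Ndufaf3 and Ndufaf4.

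Complex V had the greatest share of members called. Of 17 tested subunits 15 were higher and 0 lower than with GFP shRNA (16 and 0 at an unadjusted p under 0.05, median 0.38), and 12 were higher and 0 lower than with vehicle (13 and 0 at an unadjusted p, median 0.27). Whether this share exceeds that of the other complexes was not tested. Its mean was 0.13 to 0.37 above vehicle on the Jnk1 shRNA arrays, -0.14 to -0.07 on the GFP shRNA arrays and -0.07 to 0.06 on the vehicle arrays, and Jnk1 shRNA did not overlap either.

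In the catalytic F1 head, Atp5a1 (alpha) and Atp5b (beta), which form the nucleotide-binding ring, rose by 0.29 ± 0.05 and 0.23 ± 0.05 against GFP shRNA and by 0.27 ± 0.04 and 0.24 ± 0.04 against vehicle. Atp5a1 was 11.67 to 11.74 with Jnk1 shRNA, against 11.36 to 11.47 with GFP shRNA and 11.32 to 11.49 with vehicle, without overlap. The rotor subunit Atp5c1 (gamma) rose by 0.39 ± 0.06 and 0.26 ± 0.06. Atp5d (delta) rose by 0.27 and 0.29, and Atp5e (epsilon) rose by 0.28 ± 0.08 against GFP shRNA and was not called against vehicle (-0.00 ± 0.08). With GFP shRNA Atp5e was 9.08 to 9.13, below all vehicle arrays, which were 9.26 to 9.44, but this did not pass (-0.28 ± 0.08, adjusted p = 0.0848). It passed without Jnk1 shRNA array 2 (adjusted p = 0.0189), with arrays as deposited, with array weights, with only the 2 groups fitted and with array 2 as the only Jnk1 shRNA array (adjusted p from 0.0473 to 0.0493). As deposited or scaled to the same median, Atp5b lost both calls, at 0.00 and 0.16 against GFP shRNA, and its direction against vehicle turned (-0.04 and -0.01). In the same settings Atp5a1 also lost both calls, at 0.09 and 0.25 against GFP shRNA and 0.01 and 0.04 against vehicle. Its call against vehicle was lost too when its probe sets were averaged (-0.01).

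Of the peripheral stalk, which holds the head still, Atp5o (the subunit that binds the top of F1) read 10.40, 10.57, 10.63, 10.56 and 10.51 with Jnk1 shRNA, against 10.08, 10.02, 10.03 and 10.08 with GFP shRNA and 9.94, 10.16, 10.08, 10.07 and 10.06 with vehicle. It rose without overlap by 0.48 ± 0.06 (adjusted p = 1.44e-05) and 0.47 ± 0.06 (adjusted p = 5.80e-06), and every alternative kept both calls (0.46 to 0.65 and 0.42 to 0.54). Atp5pb (b) and Atp5h (d) rose by 0.38 and 0.34 against GFP shRNA and by 0.34 and 0.24 against vehicle. Atp5j (coupling factor 6) gave 0.05 ± 0.06 and -0.01 ± 0.05 and was not called.

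The c ring, through which protons pass, is encoded by 3 genes that give the same mature protein. Atp5g1 read 10.39, 10.04, 10.42, 10.01 and 9.96 with Jnk1 shRNA, against 9.88, 9.79, 9.81 and 9.66 with GFP shRNA and 9.99, 10.03, 10.00, 10.10 and 9.99 with vehicle. It was above every GFP shRNA array (0.38 ± 0.09, adjusted p = 0.00475) and overlapped vehicle (0.14 ± 0.09), with arrays 1 and 3 apart from the other 3 of its group. With the spike-in covariate the Atp5g1 call against GFP shRNA was lost (0.15, adjusted p = 0.401). Atp5g2 gave 0.21 ± 0.08 (adjusted p = 0.0582) and 0.07, and passed against GFP shRNA without Jnk1 shRNA array 2 or 4 or vehicle array 2 (0.21 to 0.24, adjusted p from 0.0390 to 0.0482). Atp5g3 rose by 0.16 ± 0.04 in both comparisons, and turned to -0.10 and -0.14, uncalled, with arrays as deposited. Of the small membrane subunits, Atp5mpl read 10.56, 10.02, 10.57, 10.39 and 10.41 with Jnk1 shRNA, against 9.60 to 9.74 with GFP shRNA and 9.56 to 9.68 with vehicle, a rise of 0.73 ± 0.09 and 0.77 ± 0.09. Atp5l (g) rose by 0.42 ± 0.06 and 0.27 ± 0.06, and Atp5k (e) and Atp5j2 (f) by 0.42 and 0.38 against GFP shRNA and by 0.34 and 0.32 against vehicle. Atp5md rose by 0.66 ± 0.16 against GFP shRNA with overlap and gave 0.32 ± 0.15 against vehicle (adjusted p = 0.105).

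Of the 6 assembly factors 1 was higher (16.7%, beside 17.3% of all probe sets against GFP shRNA and 18.9% against vehicle) and 2 were lower (33.3%, beside 15.8% and 18.7%) with Jnk1 shRNA in each comparison. Whether they differ from the subunits was not tested, and their medians were -0.24 against GFP shRNA and -0.29 against vehicle; with arrays scaled to the same median 0 were lower than with GFP shRNA and the median was -0.05. Ndufaf3, an early complex I assembly factor, read 6.98, 6.85, 7.12, 6.88 and 6.61 with Jnk1 shRNA, against 7.21, 7.32, 7.19 and 7.12 with GFP shRNA and 7.40, 7.55, 7.40, 7.22 and 7.15 with vehicle. Its lowest GFP shRNA array met its highest Jnk1 shRNA array at 7.12. It fell by 0.32 ± 0.11 (adjusted p = 0.0377) relative to GFP shRNA and by 0.45 ± 0.11 (adjusted p = 0.00293) relative to vehicle. Ndufaf4, its partner, read 7.75, 7.74, 7.95, 7.95 and 7.55 with Jnk1 shRNA, against 8.21, 8.25, 8.08 and 8.09 with GFP shRNA and 8.33, 8.61, 8.05, 8.09 and 8.05 with vehicle. All 5 Jnk1 shRNA arrays lay below the other 9, by 0.37 ± 0.12 and 0.44 ± 0.11 on the log2 scale, and its second probe set was also called lower.

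Against GFP shRNA the Ndufaf3 call was lost without Jnk1 shRNA array 2, 4 or 5 or GFP shRNA array 1, 2 or 3 (-0.25 to -0.33, adjusted p from 0.0630 to 0.0972). The Ndufaf4 call was lost without Jnk1 shRNA array 5 or GFP shRNA array 1 or 2 (-0.31 to -0.35, adjusted p from 0.0609 to 0.0687). It was also lost with the spike-in covariate (-0.45, adjusted p = 0.0998). Ndufaf1, a factor of the membrane arm, rose by 0.31 ± 0.08 and 0.28 ± 0.08, at 8.44 to 8.66 with Jnk1 shRNA, against 8.18 to 8.31 with GFP shRNA and 8.08 to 8.42 with vehicle. Both Ndufaf1 calls were lost with the spike-in covariate (0.28, adjusted p = 0.133, and 0.25, adjusted p = 0.165). Ndufaf5, Ndufaf7 and Cox7a2l, a factor of the supercomplexes, gave -0.47, -0.02 and -0.15 against GFP shRNA and were not called.

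Genes of the pathway that the naming rule leaves out were read from a separate list of electron carriers and assembly factors. Of 33 tested, 12 were higher and 4 lower than with GFP shRNA, and 12 higher and 8 lower than with vehicle. Of all probe sets, 17.3% were higher and 15.8% lower in the first comparison, and 18.9% and 18.7% in the second. Those of smallest p in both comparisons were Atpif1, the inhibitor that stops the ATP synthase running backwards, at 1.91 ± 0.19 and 1.72 ± 0.18, and Higd2a, a factor for complex IV and supercomplexes, at 0.77 ± 0.08 and 0.83 ± 0.08. In the list of mitochondrial genome expression and its regulators 4 of 17 were higher and 2 lower in each of these comparisons, not far from those shares of all probe sets. Polrmt, the mitochondrial RNA polymerase, rose by 0.89 ± 0.12 and 0.75 ± 0.11. Ppargc1b, a PGC-1 coactivator, rose by 1.51 ± 0.35 against GFP shRNA and gave 0.34 ± 0.33 against vehicle, and Polg, the mitochondrial DNA polymerase, fell by 0.30 and 0.42. Ppargc1b was dim and uneven with GFP shRNA, at 4.96 ± 0.90 (SD), where the lowest tested mean was 4.83. Its GFP shRNA difference from vehicle was -1.16 ± 0.35 (adjusted p = 0.0990). With GFP shRNA, Ppargc1a, the other PGC-1 coactivator on the list, was lower than with vehicle (-0.60 ± 0.14, adjusted p = 0.0343). Of the factors whose motifs were searched, Nrf1, Gabpa, Esrra and Yy1 gave -0.15, 0.21, 0.29 and 0.23 against GFP shRNA, all uncalled, and Yy1 rose by 0.31 ± 0.11 against vehicle (adjusted p = 0.0428).

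Markers of other liver cells also differed between the groups. Of 10 tested Kupffer cell and macrophage markers 7 were lower and 0 higher with Jnk1 shRNA than with GFP shRNA, beside 15.8% of all probe sets lower. Against vehicle 4 were lower. With GFP shRNA 2 were higher than with vehicle (Mpeg1 by 1.56 ± 0.16, Cd5l by 0.86 ± 0.11) and 2 lower (Clec4f -1.98 ± 0.14, Vsig4 -2.06 ± 0.18). Mpeg1 and Cd5l were not called for Jnk1 shRNA against vehicle (0.26 and 0.03), so the markers did not move together. The sum over the 11 markers on the array was 2952 to 3631 in intensity with Jnk1 shRNA, 5175 to 5842 with GFP shRNA and 2980 to 5308 with vehicle. Of 10 hepatocyte markers 0 were higher and 3 lower than with GFP shRNA, and their sum was 47680 to 49751, against 49898 to 51979. The hepatocyte markers are bright, and 25.1% of the brightest 25% of probe sets were called lower in this comparison, near 3 of 10. Of 7 endothelial and 6 stellate cell markers 3 and 4 were lower. Against vehicle, 5 hepatocyte, 5 endothelial and 2 stellate cell markers were lower with Jnk1 shRNA and 0 higher. In that comparison 18.7% of all probe sets and 27.8% of the brightest 25% were called lower. Both tested T and NK cell markers, Nkg7 (2.17 ± 0.21) and Gzma (adjusted p = 0.00463), were higher than with vehicle and not called against GFP shRNA, and Nkg7 was also higher with GFP shRNA than with vehicle (1.93 ± 0.23). The 1 tested fat marker was lower than with vehicle (-0.92) and not called against GFP shRNA, and the 1 tested erythroid marker was lower in both comparisons (-2.02 against GFP shRNA, -2.04 against vehicle). The sum of the 10 muscle markers was 117 to 124 with Jnk1 shRNA, 149 to 172 with GFP shRNA and 162 to 797 with vehicle. In bulk liver RNA, fewer cells of a type and less RNA per cell cannot be told apart, and the part of cell makeup in the member values was not tested.

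Within genes, probe sets could be set against each other. For 42 members, 62 further probe sets passed the filter. Where the representative probe set was called against GFP shRNA, 33 of 41 further sets were called in the same direction, 5 had the same sign uncalled, 2 the opposite sign uncalled and 1, the dim set of Cox5b, was called the opposite way. Against vehicle the numbers were 29, 9, 1 and 1 of 40. Ndufa7, a complex I accessory subunit not called on its representative set (-0.41 ± 0.18 against vehicle, adjusted p = 0.0928), was called lower than with vehicle on 3 of its 4 further sets (-0.38, -0.38 and -0.47). Several of these sets carry the suffix that marks probes shared between similar transcripts, so they need not be independent.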

How the data were processed

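Single-channel Affymetrix mouse arrays measured liver RNA in 14 samples, grouped by the labels. Per the labels' protocols, column-purified total RNA was biotin labelled. The authors deposited linear probe set intensities, and the scanner software, background correction and detection calls were not given in the sources used here. Each array had a mean of 150.05 to 150.06 after 2% of probe sets were trimmed from either end, so the deposited intensities had been scaled.

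From the deposited intensities, log2 values were computed after quantile normalization (array medians spanned 0.48 on the log2 scale, above the 0.2 that triggers it), with a floor at the 5th percentile (2.01). Tests excluded 64 control probe sets and the dimmest 40% of the other 22626, leaving 13575 with a mean intensity of at least 28.4. The 3 group means were fitted to all arrays with limma 3.58.1 in R 4.3.3, with an intensity trend in the variance (11 residual and 4.94 prior degrees of freedom) and Benjamini-Hochberg adjustment over all 13575. Differences are of mean log2 intensity with SE, group values are means with SD, and no level is compared between probe sets.

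Of 156 probe sets with a member symbol, 1 was used per gene, and 8 with several symbols that begin alike were left out. Symbols come from the platform annotation, and promoters, matched by gene, from RefSeq. Members, motifs, marker lists and named genes were chosen with earlier results of these data known. Named genes were the 3 of smallest p per complex and comparison, every member called lower, the complex II and isoform genes, and the 2 of smallest p in the other pathway list; further genes were named after their values were seen. The fit was checked on simulated data. Alternatives changed the normalization, floor, filter, variance model, array weights, probe set rule, arrays fitted, spike-in covariate and replicate block.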

Additional observations from a re-analysis of the deposited data

Results flagged for a closer look

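Each named gene's group values were tested for a single array far from the others (Dixon's criterion), which chance meets in about 1 of 20 groups. Of 156 groups tested, 4 met it. Ndufc2 read 9.74 on GFP shRNA array 3, where the other GFP shRNA arrays read 10.36 to 10.43. Ndufa2 read 9.10 on vehicle array 2, where the others read 8.85 to 8.90, and this array raises the vehicle mean from which both virus groups were lower. Atp5e read 9.26 on vehicle array 1, where the others read 9.40 to 9.44. Ndufs3 read 9.96 on vehicle array 5, where the others read 10.05 to 10.07.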

How the results depend on the processing

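With Jnk1 shRNA array 2 alone, an assumption that the lone array varied like the other groups, 17 members were higher (median 0.17) against GFP shRNA, beside 4.92% of all probe sets, and 15 higher and 3 lower (median 0.13) against vehicle, beside 7.02% and 7.12%, and 1 was lower with GFP shRNA than with vehicle. With the spike-in covariate, 26 were higher and 3 lower against GFP shRNA (median 0.20), beside 8.96% and 8.35% of all, and 21 higher and 8 lower against vehicle (median 0.11), beside 11.4% and 10.8%. With arrays as deposited, 27 were higher and 8 lower against vehicle (median 0.12), beside 19.8% and 19% of all. In that setting 4 were lower with GFP shRNA than with vehicle (median -0.13), beside 0.538% of all. With arrays scaled to the same median, 0 were lower against GFP shRNA (median 0.45), 21 were higher against vehicle (median 0.15), beside 18.4% of all, and 0 were lower with GFP shRNA than with vehicle (median -0.26); of all probe sets called against GFP shRNA 72.3% were then higher, against 52.3%. The 2 genes lower with GFP shRNA than with vehicle became 0 without an intensity trend, 0 with the replicate block, 0 without Jnk1 shRNA array 1 and GFP shRNA array 2 together (chosen after seeing the data), and 1 without the filter, with 2-group fits or with probe sets averaged; array weights gave 1 higher. The 2 lower against GFP shRNA became 1 with a 2-group fit and 0 without those 2 arrays. Leaving out 1 array gave 0 to 2 for both of these counts, 52 to 58 higher against GFP shRNA and 40 to 48 higher against vehicle. No share of all probe sets is given for the fits without 1 or 2 arrays. Of the calls, directions turned for Atp5g3 as deposited (-0.10 against GFP shRNA, -0.14 against vehicle) and scaled (-0.11 against vehicle), for Atp5b against vehicle (-0.04 as deposited, -0.01 scaled), for Ndufb6 against vehicle with the spike-in covariate (-0.02), for Cox7a2 against vehicle as deposited (-0.0281) and for Atp5a1 against vehicle with probe sets averaged (-0.0116). Members outside the named genes were read under these 3 scalings only; among the named results, 42 further sign changes, over 14 results, were in values without a call. The replicate numbers, which the labels do not describe as pairs, gave correlations of deviations from -0.24 to 0.12. Of the 14 arrays, 5 correlated best with their own number. With the replicate block, 53 members were higher and 2 lower against GFP shRNA, beside 15.8% and 14.4% of all probe sets. Against vehicle the block gave 41 higher and 5 lower, beside 18% and 17.6%. The cause of these changes was not tested.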
